A study of Arabidopsis thaliana with 14 samples.

Results

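Wild-type Arabidopsis thaliana seedlings of the accession Col-0 were sequenced as 2 separate pairs of libraries, and the levels of every gene were compared between the pairs. The first pair (Col-0 replicates 1 and 2) was deposited in one table with the mutants fve and suvh2/9. The second pair (replicates 3 and 4) was deposited in another table with 3 mutants, namely rrm1, the triple mutant pdp1/2/3, and the quadruple mutant that combines them, pdp1/2/3;rrm1. The 4 Col-0 libraries were chosen by these labels alone and make up 4 of the 14 RNA-seq libraries of the study, which examined FVE, a WD-40 repeat protein, in RNA-directed DNA methylation. All 4 carry the same label, wild type, and differ in the labels only by replicate number and by the mutants they were the control for.

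All plants were 11-day-old whole seedlings from MS medium plates kept in 16 h of light at 23 °C and 8 h of darkness at 21 °C. The mutants carry homozygous alleles, written as -/- in the labels, of fve alone, of suvh2 and suvh9, of rrm1 alone, of pdp1, pdp2 and pdp3, or of pdp1, pdp2, pdp3 and rrm1. Total RNA came from 1 g of tissue per library and was read as single ends of 50 nt. The labels name neither the hour of harvest, the sowing, nor the sequencing run, so any of these cannot be told apart from the pair a library belongs to. They also do not say whether replicates were separate cultures, so the spread within a pair may be technical.

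The plant circadian clock is a set of transcription factors that repress or activate one another in turn over the day. The related MYB proteins LHY and CCA1 peak at dawn, the pseudo-response regulators PRR9, PRR7 and PRR5 follow through the day, and TOC1, GI and the evening complex of ELF3, ELF4 and LUX peak towards dusk. In leaves, starch made in the light is broken down at night, and transcripts of many starch-degrading enzymes, cold-regulated genes and flavonoid enzymes cycle with the day.

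Levels are given as CPM, the deposited adjusted counts per 1000000 of the common total of their table, and differences as the second pair minus the first on the scale of log2(CPM + 1). The tables carry different common totals and were treated as normalised separately, so levels were set side by side across them without a test. A gene was called apart when both libraries of one pair lay above both of the other and the difference reached 1, that is 2-fold in CPM + 1. The pairs of a gene called apart therefore do not overlap by rule, and a lack of overlap without this difference was not counted. At low levels the ratio of CPM is larger than this difference shows. The 4 libraries summed to 21259805, 21671671, 19131806 and 19497293 adjusted counts. A single count is worth 0.0465 CPM in the first table and 0.0520 CPM in the second, and a count of 0 allows up to 0.140 and 0.156 CPM (3 counts per library, counting error only). As a check of the labels, FVE was at 65.8 and 67.2 CPM in the first pair and 46.2 and 50.0 CPM in the second, against a lowest value of 15.1 CPM among the fve and suvh2/9 libraries. SUVH9 was at 40.7 and 42.8 CPM in the first pair and 52 and 51.1 CPM in the second, against a lowest value of 0.942 CPM among those libraries. SUVH2 gave no such check, since it was not called lower in suvh2/9 than in its own Col-0. It differed there by -0.33 on the log2 scale (limma, SE 0.10, adjusted p = 0.335). Of 10 reference genes, none was apart (median difference -0.06), and none of the 24 photosynthesis genes counted was (median 0.09). Over all genes counted 2.81% were apart, so lists this short would hold few such genes at that share. Seed storage markers did not pass the level filter in any case (0 of 10), with summed levels of 0.235 to 0.411 CPM per library, and 1 of 16 root markers was apart, the root hair wall protein gene PRP3 at 34.4 and 40.5 CPM in the first pair and 79.2 and 75.1 CPM in the second. The summed root markers were at 172 and 201 CPM in the first pair and 247 and 243 CPM in the second. The part of tissue make-up in the results below was not tested, and in whole seedlings fewer cells of a type and less RNA per cell cannot be told apart.

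A level of 1 CPM or more in 2 or more of the 4 libraries was reached by 18875 genes, of which 530 were apart (2.81%). In the second pair 333 were higher (1.76%) and 197 lower (1.04%). Of the 530, 527 are annotated as protein-coding, much as 18665 of all 18875 genes counted are. Within a pair, single libraries differed 2-fold in far fewer genes: 7 between replicates 1 and 2 and 10 between replicates 3 and 4. Between the pairs the 4 combinations of single libraries gave 550 to 621 such genes. Pearson's r across genes, which are not independent replicates, was 0.996 within each pair and 0.972 to 0.974 between them. After scaling to the common totals, the median difference over all genes was -0.04. The excess of higher over lower genes held at 2-fold but not at a minimum of 1.5-fold, where 1046 were higher and 1275 lower.

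The same rule applied inside a table gave a scale for this distance. Between fve and the first Col-0 pair 72 genes were apart (0.38%), and between suvh2/9 and that pair 52 (0.276%). Between rrm1 and the second Col-0 pair 146 were apart (0.773%), for pdp1/2/3 450 (2.38%), and for the quadruple mutant 424 (2.24%). At the main settings the total between the wild-type pairs was above each of these 5 totals. That total spans tables normalised separately, whereas each of the 5 lies within a table. The 5 totals were not recomputed at other settings. Of the genes apart, 374 were higher and 76 lower in pdp1/2/3 and 361 higher and 63 lower in the quadruple mutant, against 333 and 197 between the pairs.

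**Figure D1:**
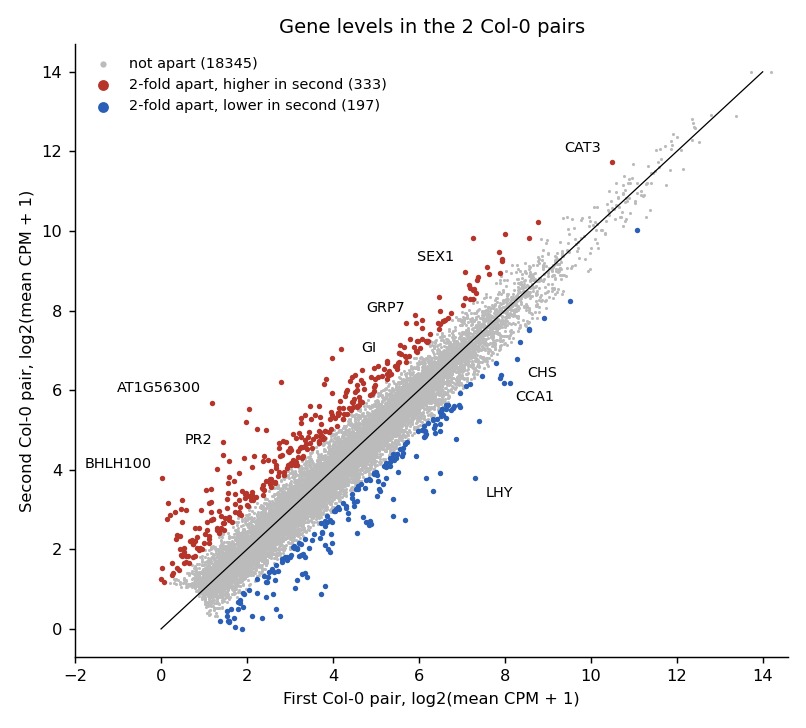
Mean level of each of 18875 genes in the first Col-0 pair (x axis) and the second (y axis), both as log2(mean CPM + 1), with 333 genes higher in the second pair in red and 197 lower in blue. Most genes lie along the diagonal, and LHY, CCA1 and CHS lie below it while SEX1, GRP7 and BHLH100 lie above it.

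The clock genes separated the pairs, with morning and evening genes in opposite directions. Among 17 counted genes of the morning list, 9 were lower in the second pair and none higher (median difference -1.06, against -0.04 over all genes counted). Among 13 counted evening genes, 6 were higher and 2 lower (median 0.89), and both midday genes were higher. Over all genes counted 1.76% were higher and 1.04% lower, the shares to set beside the count of every list below. The promoters of LHY, CCA1, the clock genes apart that hold an evening element, and RbcX1, which is no member of the clock lists but is among the genes of highest difference, are shown next. The set was chosen after the motifs were searched. They were read from the TAIR10.1 reference (NCBI RefSeq) as the 250 bases before the annotated gene start, 5′ to 3′ on the gene's strand. LHY (chr1:37872-38121, minus strand), CCA1 (chr2:19245341-19245590, plus strand) and COL2 (chr3:489468-489717, minus strand) were lower in the second pair. PRR5 (chr5:8358547-8358796, minus strand), FKF1 (chr1:25508389-25508638, plus strand), GRP7 (chr2:9266558-9266807, minus strand), CAT3 (chr1:7142722-7142971, plus strand) and RbcX1 (chr4:2118618-2118867, minus strand) were higher. Capitals mark the evening element (AAAATATCT), the CCA1-binding site (AAAAATCT) and the G-box (CACGTG) on either strand, so that an evening element on the other strand reads AGATATTTT and a CCA1-binding site AGATTTTT.
LHY: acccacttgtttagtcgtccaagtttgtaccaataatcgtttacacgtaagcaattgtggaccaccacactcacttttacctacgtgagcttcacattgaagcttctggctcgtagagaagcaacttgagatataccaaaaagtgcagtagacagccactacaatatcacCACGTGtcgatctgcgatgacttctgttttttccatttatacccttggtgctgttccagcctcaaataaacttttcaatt
CCA1: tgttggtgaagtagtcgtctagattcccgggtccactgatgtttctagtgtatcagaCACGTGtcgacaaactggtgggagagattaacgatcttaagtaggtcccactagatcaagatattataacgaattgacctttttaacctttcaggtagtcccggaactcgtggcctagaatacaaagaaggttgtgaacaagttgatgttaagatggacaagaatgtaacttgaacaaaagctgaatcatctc
COL2: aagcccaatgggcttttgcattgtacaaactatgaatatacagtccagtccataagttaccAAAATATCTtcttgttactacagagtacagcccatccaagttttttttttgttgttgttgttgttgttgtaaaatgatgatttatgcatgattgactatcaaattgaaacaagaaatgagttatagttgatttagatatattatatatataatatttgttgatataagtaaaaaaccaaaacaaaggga
PRR5: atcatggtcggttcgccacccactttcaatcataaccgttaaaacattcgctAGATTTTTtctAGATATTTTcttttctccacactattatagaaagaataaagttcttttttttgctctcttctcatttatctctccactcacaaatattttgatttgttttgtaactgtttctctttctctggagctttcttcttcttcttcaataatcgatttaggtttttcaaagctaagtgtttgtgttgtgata
FKF1: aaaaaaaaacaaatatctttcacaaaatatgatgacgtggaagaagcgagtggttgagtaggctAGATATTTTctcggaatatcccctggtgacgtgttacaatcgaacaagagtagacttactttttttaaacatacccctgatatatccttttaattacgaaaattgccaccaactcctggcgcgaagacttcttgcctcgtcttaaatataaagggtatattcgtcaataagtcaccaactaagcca
GRP7: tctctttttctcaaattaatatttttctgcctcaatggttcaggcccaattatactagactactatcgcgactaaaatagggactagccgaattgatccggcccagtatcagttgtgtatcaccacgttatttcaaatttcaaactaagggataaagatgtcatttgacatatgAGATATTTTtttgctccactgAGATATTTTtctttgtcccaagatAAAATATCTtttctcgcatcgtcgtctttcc
CAT3: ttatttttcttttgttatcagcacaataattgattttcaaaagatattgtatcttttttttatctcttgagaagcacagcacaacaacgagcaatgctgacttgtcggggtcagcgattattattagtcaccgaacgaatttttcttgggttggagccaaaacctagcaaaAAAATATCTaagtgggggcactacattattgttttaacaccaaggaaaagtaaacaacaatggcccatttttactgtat
RbcX1: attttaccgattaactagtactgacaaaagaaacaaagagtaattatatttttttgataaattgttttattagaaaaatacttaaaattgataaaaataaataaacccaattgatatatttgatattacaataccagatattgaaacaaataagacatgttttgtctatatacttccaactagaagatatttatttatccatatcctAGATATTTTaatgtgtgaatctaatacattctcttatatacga

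The evening element, to which MYB proteins of the CCA1 and RVE8 family bind, began 76, 55 and 31 bases before the start in GRP7. It began 79 bases before the start in CAT3, 186 in FKF1, 187 in PRR5 and 43 in RbcX1. LHY and CCA1 held a G-box, 80 and 193 bases before the start, and no evening element in the printed window. Of the clock genes lower in the second pair COL2 held the element, 189 bases before the start. Of those higher, PRR7, PRR3, GI and ELF4 held none in this window. Over windows of 250 bases before to 50 after the start, the element was present in 55 of the 333 genes higher in the second pair (16.5%). It was present in 5 of the 197 lower genes (2.54%) and in 558 of all 18874 windows read (2.96%). In these windows the clock genes TOC1, LUX, BOA, GRP8, RVE7 and PRR9 also held it and were not apart. The flavonoid gene FLS1 and the iron gene FER3, described below, held it and were lower. Seen from the promoters, 9.14% of the 536 genes with 1 copy were higher in the second pair, 27.3% of the 22 genes with at least 2 copies, and 1.52% of the 18316 genes without one. Genes lower in the second pair made up 0.933% of those with 1 copy and 1.05% of those without. The median difference was 0.19 over the 558 genes that hold the element and -0.04 over those that do not.

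Other motifs were spread more evenly. The CCA1-binding site, which neither contains nor is contained in the evening element, was in 8.11% of higher, 4.06% of lower and 8.13% of all windows. The G-box was in 13.2%, 15.2% and 8.84%, and the W-box core (TTGAC), bound by WRKY factors, in 52%, 53.8% and 50.8%. A match describes the letters in these windows and is not a bound site.

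LHY (AT1G01060), which with CCA1 (AT2G46830) represses evening genes, was the gene with the lowest difference of all. It was at 159.7 and 155 CPM in the first pair and 12.2 and 13.3 CPM in the second, a ratio of 12.3 and a difference of -3.53. CCA1 was at 241 and 263 CPM in the first pair and 74 and 70.2 CPM in the second (-1.79). Both genes were high in replicates 1 and 2 and low in replicates 3 and 4. RVE8 (AT3G09600), a MYB activator of evening genes, was at 69 and 71.6 CPM in the first pair and 13.6 and 11.9 CPM in the second (-2.37). RVE1, which links the clock to auxin, was at 33.8 and 48.2 CPM in the first pair and 7.9 and 9.21 CPM in the second (-2.12). COL2, a CONSTANS-like B-box gene, was at 109.7 and 123 CPM in the first pair and 26.1 and 26.3 CPM in the second (-2.11). These 3 genes were apart by the rule as well. LNK2, LNK3 and LNK4, of the family of RVE8 co-activators, differed by -1.11, -1.34 and -1.29, and CDF2, a DOF repressor of the flowering regulator CO, by -1.06.

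Not all morning genes were lower. RVE7 was at 8.2 and 9.98 CPM in the first pair and 15.1 and 18.4 CPM in the second (0.81), higher in both second libraries with a difference below 1. PRR9 was at 24.7 and 33.3 CPM in the first pair and 34.5 and 36.8 CPM in the second (0.30) and CDF1 at 37.4 and 41.2 CPM in the first pair and 40.0 and 42.8 CPM in the second (0.07), with CDF1 overlapping between the pairs. RVE4 (-0.19), LNK1 (-0.15), CDF3 (-0.16), RVE2 (-0.43) and AT5G52660 (-0.09) were not apart either. AT1G69570 was under the level filter, and COL1 was listed at 0 in all 14 libraries.

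PRR5 (AT5G24470), which represses LHY and CCA1 later in the day, was at 2.06 and 3.56 CPM in the first pair and 16.4 and 21.2 CPM in the second, a difference of 2.39. PRR7 was at 95.1 and 96.6 CPM in the first pair and 207 and 227 CPM in the second (1.17). For both the second pair was high and the first low. Their sum was 97.1 and 100.2 CPM in the first pair and 223 and 248 CPM in the second, most of it PRR7.

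Of the evening genes, FKF1 (AT1G68050), a blue-light receptor F-box protein, was at 0.367 and 0.328 CPM in the first pair and 3.85 and 4.18 CPM in the second (1.90). GI (AT1G22770), its partner in flowering-time control, was at 36.8 and 38.1 CPM in the first pair and 97.4 and 106 CPM in the second (1.41). GRP7 (AT2G21660), an RNA-binding protein driven by the clock, was at 57.2 and 62.3 CPM in the first pair and 190.5 and 219 CPM in the second (1.76). These 3 were high in replicates 3 and 4. PRR3, which protects TOC1 from degradation, was at 0.503 and 0.937 CPM in the first pair and 3.69 and 3.55 CPM in the second (1.44), and ELF4 at 1.01 and 1.36 CPM in the first pair and 4 and 4.02 CPM in the second (1.20). CAT3, an abundant catalase gene with evening transcription, was at 1512 and 1376 CPM in the first pair and 3339 and 3429 CPM in the second (1.23).

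TOC1 was at 16 and 13.9 CPM in the first pair and 26.6 and 30.6 CPM in the second (0.89), ELF3 at 17.1 and 17.3 CPM in the first pair and 27.7 and 32.4 CPM in the second (0.77) and LUX at 9.86 and 9.94 CPM in the first pair and 13.6 and 15.6 CPM in the second (0.52). All 3 were higher in both second libraries with differences below 1, and so were GRP8 (0.75) and BOA (0.62). BOA, a relative of LUX, was at low levels, 0.366 and 0.562 CPM in the first pair and 1.08 and 1.43 CPM in the second, where the ratio of CPM was 2.7. The B-box genes BBX19 and BBX18 went the other way. They count as evening genes by list assignment, and the peak time of no gene was measured here. BBX19 was at 18 and 20.6 CPM in the first pair and 5.33 and 6.25 CPM in the second (-1.58). BBX18 was at 38.8 and 49.7 CPM in the first pair and 19.6 and 20.8 CPM in the second (-1.08). COR27 and AT4G33980 were under the level filter. ZTL and LKP2, F-box relatives of FKF1, differed by 0.09 and 0.09 and overlapped between the pairs. CHE, a TCP repressor of CCA1, was at 36.2 and 35.3 CPM in the first pair and 40.6 and 50.0 CPM in the second. None of the 3 counted genes of this remaining clock list was apart.

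**Figure D2:**
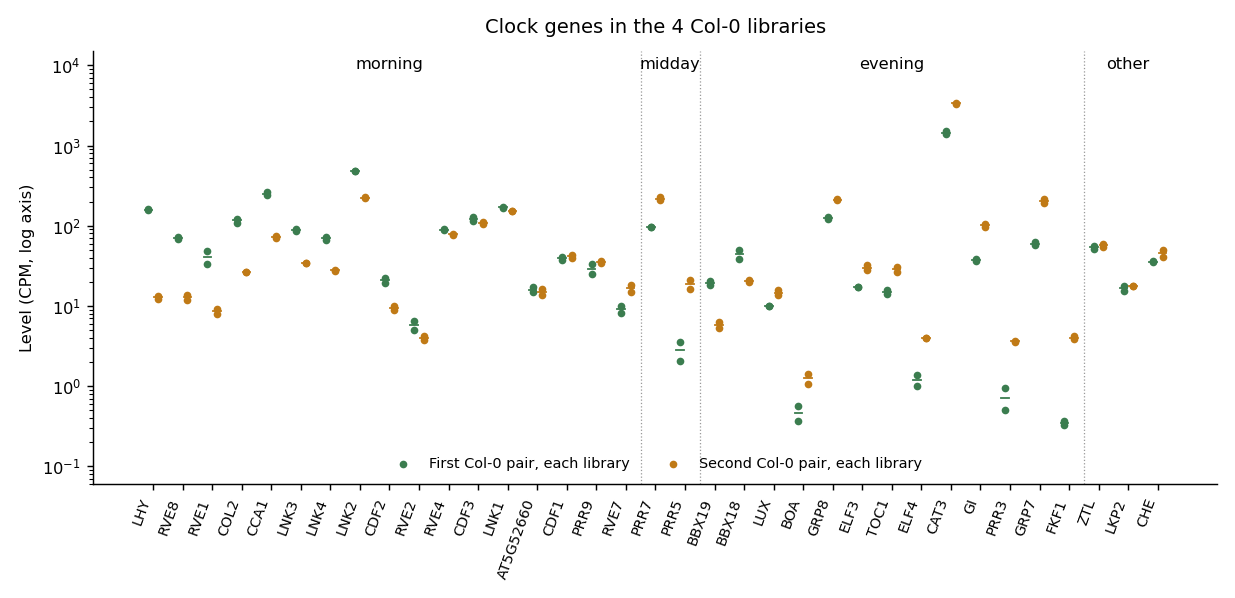
Level of each counted clock gene (CPM, log axis) in the 4 Col-0 libraries, with the first pair in green and the second in orange; points are libraries and bars the means of a pair. Points of LHY, RVE8, RVE1, COL2 and CCA1 lie lower in orange, and points of PRR7, PRR5, CAT3, GI, PRR3, GRP7 and FKF1 lie higher in orange.

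Genes of starch and sugar metabolism were more often higher than lower in the second pair. Of 28 counted, 13 were higher in the second pair and 2 lower (median 0.93), in a list not limited to starch-degrading enzymes. SEX1 (AT1G10760), the glucan, water dikinase that phosphorylates starch to open it for degradation, was at 135 and 133 CPM in the first pair and 487 and 519 CPM in the second (1.90). PWD, the second dikinase, differed by 1.17, and SEX4, the phosphatase that removes these groups, by 1.20. The cytosolic and plastidial glucan phosphorylases PHS2 and PHS1 were at 83.1 and 91.4 CPM in the first pair and 296 and 346 CPM in the second (1.86) and at 191 and 190.1 CPM in the first pair and 539 and 551 CPM in the second (1.51). All of these were apart by the rule.

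The debranching enzyme ISA3 (1.65), the disproportionating enzyme DPE1 (1.58) and the alpha-amylase AMY3, at 84.5 and 93 CPM in the first pair and 241 and 264 CPM in the second, were higher as well. The beta-amylase BAM5 was at 3.21 and 3.47 CPM in the first pair and 23.9 and 7.65 CPM in the second (1.76), with replicate 3 well above replicate 4. DIN2, DIN10 and SEN1, which are induced in darkness, differed by 1.79, 1.17 and 1.05. QQS was at 10.6 and 5.3 CPM in the first pair and 16.6 and 16.4 CPM in the second (1.03), and replicate 1 was well above replicate 2. Against this direction, GBSS1, the starch synthase that makes amylose, was at 257 and 298 CPM in the first pair and 75.3 and 68.2 CPM in the second (-1.93), and BAM3, the chloroplast beta-amylase, at 88.6 and 97.9 CPM in the first pair and 37.2 and 43.3 CPM in the second (-1.19). The evening element was in the windows of SEX1, DPE1, ISA3, PWD and GPT2, of which the first 4 were higher in the second pair.

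Flavonoid genes were lower in the second pair. Of 11 counted, 7 were apart, all lower, and the other 4 also had differences below 0 (median -1.17). Over all genes counted, 10333 of 18875 had differences below 0. CHS (AT5G13930), chalcone synthase, the entry enzyme, was at 309 and 308 CPM in the first pair and 112 and 108 CPM in the second (-1.48). DFR and LDOX, late enzymes of anthocyanin synthesis, were at 31.2 and 23.9 CPM in the first pair and 6.88 and 3.29 CPM in the second (-2.28) and at 23.8 and 21.1 CPM in the first pair and 4.88 and 3.71 CPM in the second (-2.16). For DFR replicate 3 was well above replicate 4. GSTF12, which carries anthocyanin to the vacuole (-1.44), the regulator TT8 (-1.18), FLS1, flavonol synthase (-1.17), and CHI, chalcone isomerase (-1.13), were lower too.

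Among 13 counted light-induced genes, 4 were lower and 1 higher (median -0.62). The early light-induced proteins ELIP2 and ELIP1 were at 7.06 and 8.16 CPM in the first pair and 1.34 and 0.744 CPM in the second (-2.09) and at 23.6 and 27.8 CPM in the first pair and 10.2 and 10.9 CPM in the second (-1.21). HYH, the HY5 homologue and bZIP factor of light signalling, was at 23.6 and 26.4 CPM in the first pair and 5.9 and 6.25 CPM in the second (-1.88), and RUP2, a repressor of the UV-B receptor, at 19.5 and 25.1 CPM in the first pair and 10.9 and 10.1 CPM in the second (-1.01). BBX22 was the exception, at 20.9 and 24 CPM in the first pair and 59.4 and 66.2 CPM in the second (1.44).

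Cold-regulated genes were higher in the second pair: 6 of 13 counted were higher and none lower (median 0.90). COR15B, a chloroplast protein of freezing tolerance, was at 4.35 and 4.55 CPM in the first pair and 25.9 and 35.9 CPM in the second (2.53). COR413IM1 was at 25.8 and 23.9 CPM in the first pair and 65.7 and 76.7 CPM in the second (1.48), COR47 at 218 and 253 CPM in the first pair and 487 and 496 CPM in the second (1.06) and RD29A at 70.7 and 81.1 CPM in the first pair and 172 and 166 CPM in the second (1.15). The factors CBF3 and CBF2, which switch on such genes, were at 0.916 and 1.27 CPM in the first pair and 4.51 and 4.77 CPM in the second (1.44) and at 0.595 and 0.843 CPM in the first pair and 2.31 and 2.81 CPM in the second (1.05). Their reads may be shared between near-identical copies, so the split between the CBF genes is uncertain.

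Iron-deficiency regulators were at or near 0 in the first pair. BHLH100 (AT2G41240) was at 0.0459 and 4.18e-05 CPM there and at 14 and 11.5 CPM in the second pair (3.74); the first 2 values are worth about 1 count or less, so the difference is neither a fold nor a bound, as for the other genes with a pair near 0. BHLH38 was at 0.23 and 0.094 CPM in the first pair and 7.55 and 4.88 CPM in the second (2.61), BHLH39 at 0.367 and 0.375 CPM in the first pair and 8.06 and 6.15 CPM in the second (2.55) and BHLH101 at 0.321 and 0.281 CPM in the first pair and 4.93 and 3.39 CPM in the second (1.97). These 4 basic helix-loop-helix factors of 1 subgroup act in iron uptake and are similar to each other. FRO3, a ferric reductase, was at 28.1 and 28.9 CPM in the first pair and 86.5 and 72.4 CPM in the second (1.44), while the iron stores FER1 and FER3, ferritins, were at 215 and 228 CPM in the first pair and 98.9 and 103 CPM in the second (-1.12) and at 38.4 and 39.8 CPM in the first pair and 18.5 and 18.8 CPM in the second (-1.03). In all, 5 of 18 counted iron genes were higher and 2 lower (median 0.54). That median rested on single libraries: it was 0.86 without replicate 1, 0.29 without replicate 2 and 0.19 without replicate 3.

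Salicylic acid genes were higher in the second pair, 9 of 17 counted, and none was lower (median 1.06). The median was 0.58 without replicate 3, 0.67 without replicate 4, 0.56 with a pseudocount of 5 and 0.60 without the level filter. PR1 (AT2G14610) was at 0.138 and 0.0939 CPM in the first pair and 13 and 3.04 CPM in the second (2.75). Its first-pair levels are at or below the 0.140 CPM that a count of 0 allows, and replicate 3 was well above replicate 4. PR2 (AT3G57260), a beta-1,3-glucanase, was at 2.39 and 1.03 CPM in the first pair and 21.4 and 17.8 CPM in the second (2.97). PCC1 was at 2.89 and 2.11 CPM in the first pair and 12.9 and 15.3 CPM in the second (2.11), LURP1 at 5.19 and 1.74 CPM in the first pair and 26.4 and 12.1 CPM in the second (2.20) and WRKY70, a transcription factor of the pathway, at 6.19 and 5.16 CPM in the first pair and 25.8 and 19.2 CPM in the second (1.80). ACD6, an ankyrin protein of disease resistance, was at 26.9 and 13.9 CPM in the first pair and 58.5 and 29.5 CPM in the second (1.06), and its pairs came close, with replicate 1 and replicate 4 near each other. The calmodulin-binding factors SARD1 and CBP60G, which act in salicylic acid synthesis, differed by 1.38 and 1.23, and SAG13 by 1.13. PR5 differed by -0.80.

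Of 18 counted touch and wound genes 5 were higher (median 0.64, and 0.39 with a pseudocount of 5), among them ERF6 (1.19), ERF104 (1.14) and WRKY33 (1.01). Of 14 jasmonate genes 3 were higher, AOC2 (1.27), an enzyme of jasmonate synthesis, and the storage proteins VSP2 (1.18) and VSP1 (1.11), close copies whose reads may be shared. The nitrate transporter gene NRT2.1 differed by 1.58, the dehydrin gene RAB18 differed by 1.22, and the auxin gene IAA29 by 1.11, each as the only gene apart among 16 nitrogen, 11 abscisic acid and 21 shade and growth genes counted. Over all genes counted 1.76% were higher, and in lists this short 1 gene apart, or none, cannot be told from that share. All 18 cell division genes counted were below 0 (median -0.53), with CYCB1;2 at 17.3 and 18.8 CPM in the first pair and 9.49 and 9.96 CPM in the second, but none was apart. Of all 18875 genes counted, 10333 were below 0. None of 9 heat shock and 9 phosphate genes counted was apart, nor was the 1 counted floral organ gene, SEP3.

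Of 15 flowering-time genes counted, 1 was apart, against 2.81% of all genes counted, a share from which so short a list cannot be told. That gene was AGL24, a promoter of flowering, at 6.42 and 5.67 CPM in the first pair and 2.36 and 2.44 CPM in the second (-1.05). SOC1, its partner, was at 35.3 and 42.2 CPM in the first pair and 64 and 62.4 CPM in the second (0.70), higher in both second libraries with a difference below 1. FLC, the main repressor of flowering, was at 0.32 and 0.422 CPM in the first pair and 0.411 and 0.318 CPM in the second, and FT at 0.642 and 0.516 CPM in the first pair and 0.153 and 0.264 CPM in the second, both under the level filter. Within the tables limma (Benjamini-Hochberg) found SOC1 lower in fve than in its own Col-0, with a difference of -1.16 on the log2 scale (SE 0.13, adjusted p = 0.000902), and lower in pdp1/2/3, with -0.82 (SE 0.09, adjusted p = 5.68e-05). It was also lower in the quadruple mutant, by limma -1.32 (SE 0.09, adjusted p = 3.08e-06), and in rrm1, -0.50 (SE 0.09, adjusted p = 0.0084). The rrm1 call was lost without Col-0 replicate 3, without Col-0 replicate 4 and without rrm1 replicate 1 (limma, adjusted p = 0.0877, 0.0644 and 0.0834). The fve call was lost without the level filter (limma, adjusted p = 0.0679), and the comparisons of rrm1, pdp1/2/3 and the quadruple mutant use the same Col-0 libraries as the difference between the pairs. ROS1, a DNA demethylase whose level follows methylation, was at 60.9 and 60.0 CPM in the first pair and 47.2 and 49.1 CPM in the second, and SUVH2 at 9.49 and 9.42 CPM in the first pair and 11 and 11.5 CPM in the second. SDC, a gene silenced by DNA methylation, was at 0, 0.0468, 0 and 0 CPM, at or near 0 in both pairs.

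**Figure D3:**
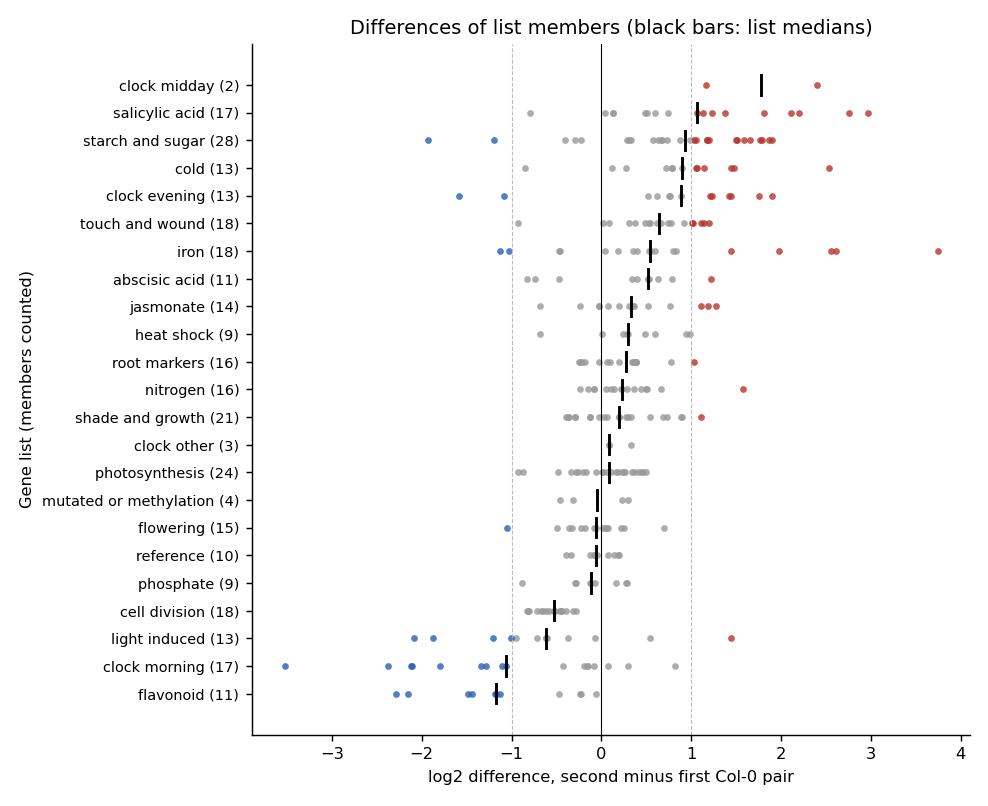
Differences between the Col-0 pairs (log2, second minus first) for the counted members of each gene list, 1 point per gene, with genes apart in red (higher) and blue (lower), black bars at list medians and dashed lines at -1 and 1. Medians run from -1.17 for flavonoid genes and -1.06 for morning clock genes to 1.06 for salicylic acid genes and 1.78 for the 2 midday clock genes, with reference genes at -0.06.

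The highest difference of all belonged to AT1G56300, annotated as a chaperone DnaJ-domain protein, at 1.42 and 1.13 CPM in the first pair and 46.7 and 54 CPM in the second (4.50, a ratio of 39.5). RbcX1, a chaperone-like protein for Rubisco assembly, was at 2.93 and 3.33 CPM in the first pair and 39.8 and 49.8 CPM in the second (3.46). AT2G33830, annotated as a dormancy and auxin associated protein, was at 4.49 and 7.4 CPM in the first pair and 66 and 80.5 CPM in the second (3.44). Among the 4 Col-0 libraries all 3 were high in replicates 3 and 4. The adjacent genes AT2G15880, a leucine-rich repeat protein, and MEE14 were at 2.43 and 3.47 CPM in the first pair and 34.6 and 36.3 CPM in the second (3.22) and at 15.3 and 19 CPM in the first pair and 110.3 and 148 CPM in the second (2.84). AT3G62550 (2.81), the thioredoxin gene WCRKC1 (2.79), the phospholipase gene PLA2A (2.76), AT1G11210 (2.72) and AT4G16146 (2.65) completed the group with PR1, PR2, BHLH100, the defensin-like gene AT1G13609 (3.28) and PCR1 (2.64). Evening elements began 66 bases before the start of MEE14 and 110 before that of AT4G16146.

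The lowest differences beside LHY were in AT4G22517, a lipid-transfer-type protein gene, at 51.7 and 48.4 CPM in the first pair and 6.52 and 4.93 CPM in the second (-2.93), AT3G05727 (-2.87) and PRB1, a basic relative of PR1, at 10.8 and 13.6 CPM in the first pair and 0.924 and 0.742 CPM in the second (-2.84). AT4G22517 belongs to a run of 6 consecutive counted genes on chromosome 4, from 11844242 to 11857362 (TAIR10.1), all lower in the second pair: AT4G22475, AT4G22485, AT4G22490, AT4G22505, AT4G22513 and AT4G22517. AT4G22475 was at 13.7 and 12.4 CPM in the first pair and 1.13 and 1.11 CPM in the second (-2.73) and AT4G22490 at 80.3 and 97.2 CPM in the first pair and 14.7 and 13.7 CPM in the second (-2.55). Some of them are annotated as lipid-transfer-type proteins, and reads of similar neighbouring copies may be split between them, so the 6 are not independent. It was the longest run of neighbours among the genes apart, before a run of 3 higher genes of chromosome 1 (TUB5, FNR2 and AT1G20030). CYP78A5, a cytochrome P450 of organ growth, was at 6.74 and 4.88 CPM in the first pair and 0.256 and 0.265 CPM in the second (-2.42), AO, the L-aspartate oxidase of NAD synthesis, at 27.1 and 29.6 CPM in the first pair and 5.8 and 4.61 CPM in the second (-2.25), and AT5G15950, annotated as an adenosylmethionine decarboxylase, at 150.0 and 184 CPM in the first pair and 39.4 and 33.4 CPM in the second (-2.16). AT2G27420 (-2.56), AT5G38930 (-2.17) and AT4G15430 (-2.14) were the others.

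The mutant libraries gave the same comparison without any Col-0 library. The mean of the 3 mutant groups of the second table was set against the mean of fve and suvh2/9 for each gene, with different genotypes on the 2 sides and the separate normalisation of the tables shared with the Col-0 comparison. Over all genes, the 6 mutant libraries of the second table lay above all 4 of the first in 3383 genes (17.9%) and below them in 4564 (24.2%). Of the 333 genes higher in the second Col-0 pair, 286 had all second-table mutant libraries above all first-table ones (85.9%), with a median mutant difference of 1.27. Of the 197 lower genes, 180 had them all below (91.4%), with a median of -1.16. Across the 18875 genes Pearson's r between the Col-0 and the mutant differences was 0.805, as a description, since genes share libraries and scaling.

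LHY ranged over 107 to 139 CPM in the 4 mutant libraries of the first table and reached at most 16.9 CPM in the 6 of the second. CCA1 ranged over 195 to 221 and 46.3 to 73.3 CPM. GI ranged over 39 to 45.2 and 93.1 to 115 CPM, PRR5 over 2.77 to 3.28 and 17.6 to 31.9 CPM. For these 4 clock genes no mutant library of one table reached the range of the other table. SEX1 (131 to 144 and 404 to 501 CPM) and CHS (283 to 314 and 66.7 to 160.4 CPM) split in the same way. Medians of the mutant differences were -0.73 for morning genes, 1.18 for evening genes, 1.23 for starch and sugar genes, -0.90 for flavonoid genes and 0.89 for cold genes. For salicylic acid genes the median was 0.39 in the mutants and 1.06 in Col-0, and for iron genes 0.21 and 0.54, but without Col-0 replicate 3 the Col-0 medians were 0.58 and 0.19. Touch and wound genes stood farther apart in the mutants than in Col-0 (median 2.13 against 0.64), and BHLH100 (0.646 to 2.11 and 5.58 to 15.1 CPM) was in both tables above the first Col-0 pair.

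**Figure D4:**
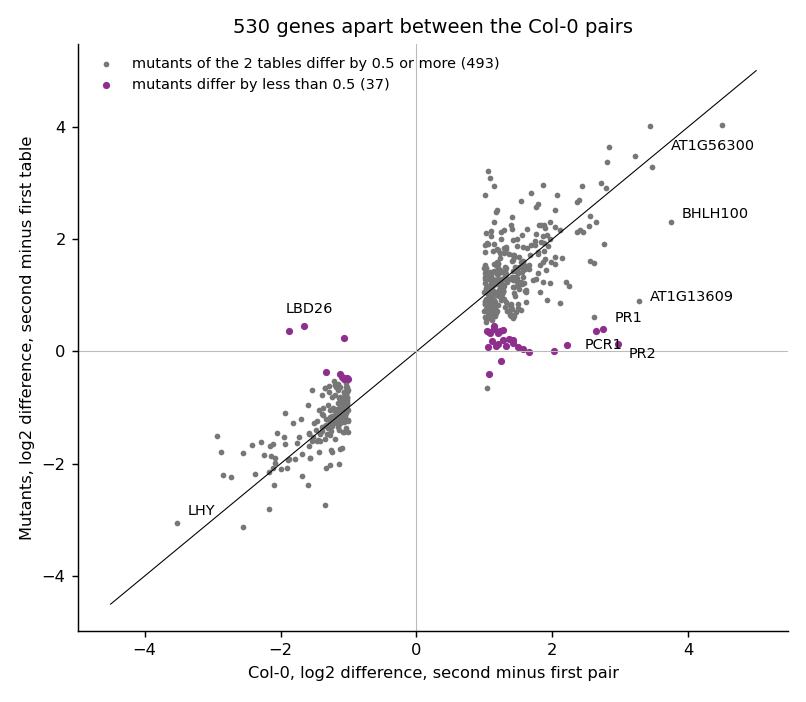
For the 530 genes apart, the difference between the Col-0 pairs (x axis) and between the mutants of the tables (y axis), both log2, second minus first, with the diagonal drawn; the empty band in the middle comes from the 2-fold rule. Most points lie near the diagonal, and 37 genes in purple, among them PR1, PR2 and PCR1, lie within 0.5 of 0 on the y axis.

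A smaller set of genes was apart in Col-0 with close levels in the mutants of the tables. Of the 530, 37 had a mutant difference smaller than 0.5, 27 higher and 10 lower genes, singled out after their values were seen. That is 6.98% of the genes apart, whereas 15036 of all 18875 genes (79.7%) had a mutant difference this small. PR1 ranged over 0 to 0.187 CPM in the first-table mutants and 0.0489 to 1.35 CPM in the second-table mutants, against 13 and 3.04 CPM in the second Col-0 pair. PR2 ranged over 1.66 to 5.1 and 1.35 to 5.16 CPM, against 21.4 and 17.8. PCR1, named for cadmium resistance, ranged over 0 to 0.0469 and 0 to 1.15 CPM, against 6.73 and 4.93. In all 3 the second Col-0 pair stood above every one of the other 12 libraries. AIG1 was at 0.505 and 0.282 CPM in the first pair and 5.44 and 5.51 CPM in the second (2.22 against 0.11 in the mutants), and the wall-associated kinase gene WAK1 at 14.5 and 9.94 CPM in the first pair and 41.2 and 28 CPM in the second (1.42 against 0.20). Other members were WAK3, the receptor-like proteins RLP23, RLP34 and RLP41, ACD6, ALD1, an enzyme of pipecolic acid synthesis, and AT5G10760, an aspartyl protease. Among the lower genes FER1 (-1.12 against -0.40), the lipid-transfer gene LTP2 (-1.33 against -0.37) and LBD26 (-1.66 against 0.45) were in this set.

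Within the second table PR1, PR2, PCC1 and QQS were lower in the 3 mutants than in the second Col-0 pair, a comparison that uses the same Col-0 libraries as the difference between the pairs. By limma (Benjamini-Hochberg), 775 genes passed an adjusted p of 0.05 in rrm1 (4.03%), 3513 in pdp1/2/3 (18.3%) and 3427 in the quadruple mutant (17.8%), while fve gave 361 (1.89%) and suvh2/9 109 (0.571%). Without 1 library these counts went as low as 204, 1826, 1542, 100 and 51, in that order. PR2 differed on the log2 scale by -2.79 in rrm1 (SE 0.36, adjusted p = 0.0015, limma), -2.15 in pdp1/2/3 and -2.43 in the quadruple mutant. PR1 differed by -2.77, -2.09 and -2.39 (limma, adjusted p = 0.00577, 0.00612 and 0.00308), of which the rrm1 call was lost without the level filter (limma, adjusted p = 0.0632). PCC1 differed by -2.03 in rrm1, -1.50 in pdp1/2/3 and -2.45 in the quadruple mutant (limma, adjusted p = 3.05e-05, 3.38e-05 and 2.01e-06). QQS differed by -2.70, -3.00 and -2.99 in the same order (limma, adjusted p = 1.57e-05, 2.14e-06 and 2.01e-06). In the first table PR2 passed in neither mutant (limma, adjusted p = 0.434 in fve and 0.999 in suvh2/9). QQS differed there in suvh2/9, by -1.82 (SE 0.23, adjusted p = 0.00236, limma), a call lost without trend and without the level filter (limma, adjusted p = 0.0745 and 0.184).

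Clock genes also differed between second-table mutants and their own Col-0, which are the libraries of the second pair. Of 35 clock genes tested by limma, 7 were higher and 4 lower in pdp1/2/3, 11 higher and 6 lower in the quadruple mutant, and 1 lower in rrm1, against 18.3%, 17.8% and 4.03% of all genes called. Of 32 tested in the first table, 1 was lower in suvh2/9 and none passed in fve. LHY differed from its own Col-0 by limma in suvh2/9 alone, by -0.41 (SE 0.08, adjusted p = 0.042), a call lost in 5 of its alternatives, among them without either Col-0 library (limma, adjusted p = 0.428 and 0.285). Against the difference of -3.53 between the wild-type pairs, the 3 second-table mutants differed from their Col-0 by 0.01, 0.34 and 0.19 (limma, adjusted p = 0.982, 0.179 and 0.472). GI passed in none of the 5 mutants, with limma adjusted p from 0.249 to 0.869. GRP7 was higher in pdp1/2/3 by 0.60 (SE 0.10, adjusted p = 0.00136, limma) and in the quadruple mutant by 0.83 (adjusted p = 0.000175, limma). CCA1 was lower in the quadruple mutant, with -0.54 (adjusted p = 0.00285, limma), and in rrm1, with -0.47 (adjusted p = 0.0219, limma). The rrm1 call was lost without trend and without the level filter (limma, adjusted p = 0.0892 and 0.0907). It was also lost without either second Col-0 library and without rrm1 replicate 2. Between the pairs GRP7 and CCA1 differed by 1.76 and -1.79.

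For other clock genes the values in the mutants and between the pairs, which share the second Col-0 libraries, are given side by side. PRR9 was lower in pdp1/2/3, -1.05 (SE 0.13, adjusted p = 0.000197, limma), and in the quadruple mutant, -0.75 (limma, adjusted p = 0.00236), against 0.30 between the pairs. CDF3, a DOF factor related to CDF2, was lower by limma in the same mutants, -1.18 and -0.89 (adjusted p = 0.000159 and 0.00136), against -0.16. LUX was higher by limma, 0.64 and 0.65 (adjusted p = 0.0012 and 0.00129), against 0.52, and CHE in pdp1/2/3 by 0.91 (limma, adjusted p = 0.000491), against 0.33. TOC1 was higher in pdp1/2/3 by 0.41 and PRR5 in the quadruple mutant by 0.73 (limma, adjusted p = 0.00818 and 0.00487), both lost without Col-0 replicate 3 (limma, adjusted p = 0.108 and 0.0656). LNK4 and RVE1, lower in the second pair, were higher than their own Col-0 in pdp1/2/3, by 0.88 and 0.48 (limma, adjusted p = 2.81e-05 and 0.00768), the RVE1 call being lost without Col-0 replicate 3 and without pdp1/2/3 replicate 2 (limma, adjusted p = 0.0903 and 0.0571).

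**Figure D5:**
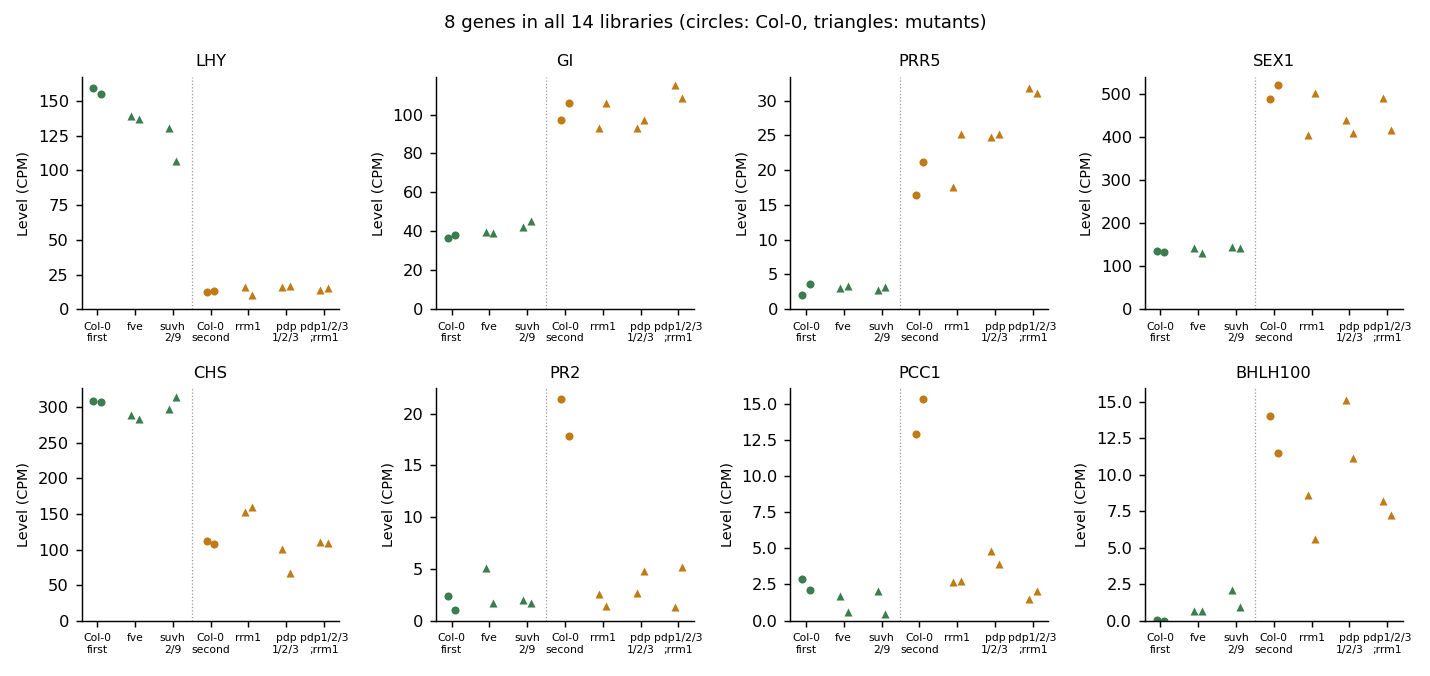
Level (CPM) of 8 genes in all 14 libraries, with the first table in green, the second in orange, Col-0 as circles and mutants as triangles, and a dotted line between the tables. LHY, GI, PRR5, SEX1 and CHS split by table in Col-0 and mutants alike, whereas PR2 and PCC1 are high in the second Col-0 pair alone.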

How the data were processed

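RNA-seq of 14 libraries in 7 groups of 2 was deposited by the authors as 2 tables, each a normalised signal per gene and library with no further definition. HISAT2, featureCounts, edgeR and TAIR10 are named per the submitters' processing notes, without versions or roles; neither library kit nor strand is stated, so reads of overlapping or antisense genes cannot be told apart. The signal has the form of counts adjusted to a common library size: in the 4 Col-0 libraries 99.8% to 100% of values from 0.5 to 10 were whole to within 0.2. This share was smallest, 72.8% and 90.0%, in the first replicates of rrm1 and of the quadruple mutant. Read counts were not recovered.

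Each table was divided by the geometric mean of its library totals (21485094 and 19220337) and multiplied by 1000000 to give CPM. Library totals over both tables lay between 18609045 and 21722950 adjusted counts. Genes of the Col-0 comparison needed at least 1 CPM in 2 of the 4 libraries, and differences were taken on log2(CPM + 1), which understates the change of low genes. With 2 libraries against 2 from tables normalised separately, no test was run across the tables; the rule for genes apart is given in the text. Within each table, mutants were compared with their own Col-0 by limma 3.58.1 (trend, Benjamini-Hochberg, two-sided) in R 4.3.3, after a check on simulated data. All 32548 identifiers matched the TAIR10.1 annotation, whose build may differ in version from the authors' TAIR10. Numbers 1 and 2 are shared by the groups of the first table, but nothing in the labels says that they pair samples.

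Named were all clock genes, the 15 highest and 15 lowest genes apart with a mean of at least 5 CPM in the higher pair, up to 4 members apart of each other list, and FLC, FT, SOC1, PR1, PR2, QQS, ROS1, SDC, FVE, SUVH2 and SUVH9. Other list members and neighbouring genes were chosen after their values were seen. The comparison, the 25 gene lists (377 entries) and the rules were chosen with earlier results of these data known. Alternatives covered the pseudocount, filter, scaling, fold minimum and leaving out each library.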

Additional observations from a re-analysis of the deposited data

How the results depend on the processing

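The counts of 333 higher and 197 lower genes between the Col-0 pairs moved most with the fold minimum and pseudocount. They were 1046 and 1275 at 1.5-fold, 38 and 21 at 4-fold, and 176 and 79 with a pseudocount of 5, while a pseudocount of 0.1 gave 460 and 366. Without 1 Col-0 library they were 281 to 343 and 179 to 222. No filter, a filter of 5 CPM, scaling each library by its own total and scaling by median of ratios kept both within 1.5 times, and so did a mean of at least 5 CPM in the higher pair, chosen after seeing the data. For the 79 named genes apart, neither the pseudocount nor leaving out a library could reverse the direction, since their pairs do not overlap by rule. All 79 stayed apart with each library scaled by its own total and with median of ratios, and 58 with a pseudocount of 5. Leaving out the libraries rrm1 replicate 1 and quadruple-mutant replicate 1, also chosen after seeing the data, gave 290 and 182 genes with the mutants apart the same way, against 286 and 180. With fewer libraries to separate, these counts can only stay or rise, so they do not show whether the 2 libraries matter.

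Counts of limma calls were less stable. For fve they were 213 without trend, 125 without filter, 643 with the replicate block and 100 to 134 without 1 library, against 361; for suvh2/9 63, 59, 178 with the replicate block and 51 to 156 without 1 library, against 109. For rrm1 they were 419 without trend, 270 without filter and 204 to 334 without 1 library, against 775; leaving out 1 library gave 1826 to 3364 calls for pdp1/2/3 and 1542 to 2969 for the quadruple mutant. The cause was not tested. Same-numbered samples of the first table had correlated deviations of 0.0055, 0.144 and 0.197, and with 2 numbers they share only a number. The replicate block could be fitted in the first table only, since numbers are not shared between the Col-0 pairs or, in the second table, between Col-0 and mutants. Pairs of 2 libraries limit the precision of each level, and levels under 0.140 to 0.156 CPM cannot be told from 0.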
